A study of Mus musculus with 12 samples.

Results

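Transcripts of 9 genes for TDP-43, proteins of the FET family and their relatives, and core proteins of stress granules were followed in mouse CD8+ T cells that were resting, primed with antigen, or primed with antigen under costimulation. The genes are Tardbp (which encodes TDP-43), Ewsr1, Taf15, Matr3, Tia1, Tial1, G3bp1, G3bp2 and Atxn2. They were chosen by name for what their proteins are, not for how they moved, and make up 9 of the 55536 annotated genes in the count table. All 9 passed the filter on low counts that left 18817 genes for testing.

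The cells came from OT-I mice, whose Rag-deficient CD8+ T cells carry 1 transgenic receptor for the SIINFEKL peptide of ovalbumin. In the Ag group (5 libraries), OT-I cells were transferred into C57BL/6J recipients that were given the peptide together with control rat IgG. In the Ag+Costim group (5 libraries), recipients were given the peptide with agonist antibodies to CD134 (OX40) and CD137 (4-1BB), members of the tumor necrosis factor receptor family that costimulate T cells. Donor cells from both groups were recovered from spleen and lymph nodes by sorting on CD8, CD45.1 and the OT-I receptor chains, on day 4 by the labels. The Naive group (2 libraries) held OT-I CD8+ T cells that were never transferred or immunized, so it differs from the other groups in transfer, in host and in proliferation as well as in antigen. All 3 groups share the transgenic receptor, so the data describe a single T cell specificity. The study describes each library as a biological replicate, but the labels do not name the mouse behind each, and p-values measure the spread between these libraries.

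TDP-43 is a mainly nuclear RNA-binding protein that represses weak splice sites, guides the choice of polyadenylation site and limits its own level by acting on the end of its own transcript. EWSR1 and TAF15 are FET proteins, nuclear RNA-binding proteins with long disordered regions that take part in transcription and splicing, and MATR3 (matrin 3) is a nuclear matrix protein that binds RNA and is found with TDP-43. Stress granules are cytoplasmic assemblies of untranslated mRNA that form around G3BP1 and G3BP2 when translation initiation stalls. TIA1 and TIAL1 (also called TIAR) are splicing factors in the nucleus and granule proteins in the cytoplasm, and ATXN2 (ataxin 2) is a cytoplasmic protein that binds poly(A)-binding protein. In T cells, TIA1 is best known as a protein of cytotoxic granules and as a regulator of translation and of splicing of the death receptor Fas.

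Library totals ran from 24006053 counts (Ag replicate 4) to 49294934, and every other library held at least 40028682. Levels are given as CPM, a count relative to its library total, with the totals scaled by the trimmed mean of M-values (TMM). At these depths 3 counts correspond to 0.0609 to 0.125 CPM, far below every member. The labelled cell type held: 6 T cell markers summed to 8391 to 8944 CPM in Naive, 6013 to 9083 in Ag and 3653 to 4928 in Ag+Costim, and Cd4 stayed at or below 2.44 CPM in every library. Markers of other cells moved with the groups. A list of 6 erythroid genes summed to 150 to 2069 CPM in Naive, 626 to 6379 in Ag and 14.5 to 223 in Ag+Costim. Likewise, 6 B cell genes summed to 27.2 to 29.7, 109 to 158 and 22.8 to 59.7 CPM in the same order, with Ebf1 and Pax5 at 0 in both Naive libraries. The sums for 6 myeloid genes were 28.9 to 54.1, 46.1 to 160 and 79.7 to 133 CPM. For 3 NK cell genes they were 27.6 to 31.1, 34.2 to 52.1 and 82.6 to 112 CPM. The higher sum in Ag+Costim came from Eomes, at 15.9 to 17.6, 21.1 to 39.6 and 79.3 to 109 CPM in the same order. Klrb1c went the other way, at 9.66 to 11.8 CPM in Naive and 0.466 to 2.33 in Ag+Costim. Ncr1 overlapped between these groups, at 1.75 to 2.06 CPM in Naive and 0.343 to 2.54 in Ag+Costim. Proliferation genes (7) rose from 60.8 to 65.3 CPM in Naive through 777 to 1553 in Ag to 3504 to 4754 in Ag+Costim. The part of these differences in the values below was not tested. In bulk libraries, fewer cells that carry a transcript cannot be told apart from less of it per cell.

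Short stretches of Taf15, Tia1 and Tial1 are printed here, taken from GENCODE vM21 transcripts of GRCm38 (mm10). For Taf15, the end of an exon is shown where the long and the short transcript part, with the last 15 exon bases in capitals and the bases that Taf15-204 keeps and Taf15-201 splices out in lower case.
Taf15 exon end, chr11:83489031-83489060, plus strand: TATGACAGGATCAAGgtaagtatttagatt
The Tia1 cassette exon (33 bases, chr6:86419101-86419133, plus strand) and the Tial1 exon extension (51 bases, chr7:128448720-128448770, minus strand) are pieces that some isoforms of these relatives keep and others leave out. Each is given in capitals between 6 bases of the adjoining exon sequence on either side.
Tia1 cassette exon: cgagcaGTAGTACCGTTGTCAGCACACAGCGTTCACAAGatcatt
Tial1 exon extension: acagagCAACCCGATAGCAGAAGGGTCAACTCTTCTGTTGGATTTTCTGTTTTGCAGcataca
These sequences were chosen after their values were seen.

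The comparison of Ag+Costim with Ag asks what agonist antibodies to CD134 and CD137 add to antigen. With costimulation, 7 of the 9 genes were higher and 1, Atxn2, was lower at an adjusted p below 0.05 (edgeR quasi-likelihood test, Benjamini-Hochberg adjustment over all 18817 genes). Tia1 did not pass. Among all genes tested, 26.6% were higher and 26.5% were lower by the same rule. Fold changes of the 7 genes that rose ran from 1.35 for Matr3 to 1.95 for Taf15. In 7 of the 9 genes, the CPM of the Ag and Ag+Costim libraries did not overlap: 6 lay above and Atxn2 below, while Taf15 and Tia1 overlapped. Of all genes tested, 21.3% lay wholly above and 18.5% wholly below.

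Tardbp (chromosome 4, minus strand, 148612382 to 148627019) stood at 117 and 136 CPM in the Naive libraries, at 86.0, 83.8, 95.2, 105 and 78.9 CPM in Ag replicates 1 to 5, and at 165, 195, 153, 126 and 156 CPM in Ag+Costim replicates 1 to 5. Every Ag library lay below both Naive libraries, and every Ag+Costim library lay above every Ag library. The mean was 127 ± 13.0 CPM (SD, n = 2) in Naive, 89.9 ± 10.5 (n = 5) in Ag and 159 ± 24.9 (n = 5) in Ag+Costim. Against Ag, Tardbp was 1.77-fold higher in Ag+Costim, a log2 difference of 0.82 ± 0.12 (SE, adjusted p = 4.67e-05, edgeR). In Ag it was lower than in Naive, by a log2 difference of -0.50 ± 0.15 (adjusted p = 0.0153, edgeR). This call was lost with a length offset (-0.35, adjusted p = 0.0848, edgeR) and without Naive replicate 2 (-0.39, adjusted p = 0.177, edgeR). Between Ag+Costim and Naive the log2 difference was 0.33 and did not pass (adjusted p = 0.0938, edgeR), although it did without Ag+Costim replicate 4, the lowest of its group (0.41, adjusted p = 0.0217, edgeR).

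The FET genes Ewsr1 and Taf15 both rose with costimulation from very different levels. Ewsr1 (chromosome 11, minus strand, 5069689 to 5099266) stood at 437 and 401 CPM in Naive, at 419, 528, 417, 344 and 534 in Ag, and at 751, 832, 889, 796 and 841 in Ag+Costim. The Naive values fell inside the Ag range, and the Ag+Costim libraries lay above both groups. The log2 difference between Ag+Costim and Ag was 0.87 ± 0.12 (SE, adjusted p = 2.45e-05, edgeR), while Ag and Naive differed by 0.10 (adjusted p = 0.625, edgeR).

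Taf15 (chromosome 11, plus strand, 83473086 to 83506743) was far lower than Ewsr1. It stood at 4.53 and 4.98 CPM in Naive, at 2.81, 3.04, 2.98, 4.59 and 2.28 in Ag, and at 4.79, 4.52, 6.64, 7.42 and 7.14 in Ag+Costim. Ag replicate 4, the library with the fewest counts, reached 4.59 CPM and so overlapped Ag+Costim replicate 2. Taf15 was 1.95-fold higher in Ag+Costim than in Ag (log2 0.96 ± 0.21, adjusted p = 0.00169, edgeR). The rise was not called where transcript length was taken into account, either on FPKM (log2 0.25 with 1 added, adjusted p = 0.226, limma) or with a length offset in the count model (0.37, adjusted p = 0.156, edgeR). In Ag against Naive, Taf15 differed by -0.60 and did not pass (adjusted p = 0.0845, edgeR), although it did without Ag replicate 4 (-0.77, adjusted p = 0.0149, edgeR). Its long and short transcripts changed share between the groups, as described below.

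Matr3 (chromosome 18, plus strand, 35562138 to 35593835) moved least among the genes that rose. It stood at 237 and 256 CPM in Naive, at 178, 209, 190.3, 184 and 207 in Ag, and at 274, 281, 239.6, 248 and 266 in Ag+Costim. All Ag libraries lay below the rest, and the Naive values overlapped with those of Ag+Costim. Ag+Costim was 1.35-fold higher than Ag (log2 0.43 ± 0.08, adjusted p = 0.000296, edgeR). Ag was lower than Naive by a log2 difference of -0.35 (adjusted p = 0.0112, edgeR). Without Naive replicate 2, that difference from Naive was -0.29.

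Among the stress granule genes, the 2 nucleators G3bp1 and G3bp2 rose together. G3bp1 (chromosome 11, plus strand, 55469685 to 55504838) stood at 373 and 359 CPM in Naive, at 459, 465, 447, 416 and 409.6 in Ag, and at 891, 986, 903, 663 and 803 in Ag+Costim. Its groups formed 3 separate bands, although the step from Naive to Ag did not pass (log2 0.26, adjusted p = 0.120, edgeR), although it did with Ag+Costim replicate 4 left out of the shared fit (adjusted p = 0.0484, edgeR). Ag+Costim exceeded Ag by a log2 difference of 0.95 ± 0.10 (1.93-fold, adjusted p = 3.27e-06, edgeR) and Naive by 1.22 (adjusted p = 1.00e-05, edgeR). G3bp2 (chromosome 5, minus strand, 92052146 to 92083719) stood at 209.5 and 201 CPM in Naive, at 157, 177, 166, 149.5 and 176 in Ag, and at 279.6, 327, 296, 261 and 275 in Ag+Costim. It was lower in Ag than in Naive (log2 -0.31, adjusted p = 0.0262, edgeR) and higher in Ag+Costim than in Ag (0.80 ± 0.08, adjusted p = 2.34e-06, edgeR) and than in Naive (0.49, adjusted p = 0.00211, edgeR). The step down from Naive was not called without Ag replicate 1 (adjusted p = 0.0528, edgeR) or without Naive replicate 1 or 2 (adjusted p = 0.171 and 0.101, edgeR), nor with a length offset (-0.24, adjusted p = 0.174, edgeR) or no filter on low counts (adjusted p = 0.0609, edgeR).

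Tia1 and Tial1, close relatives, went separate ways. Tia1 (chromosome 6, plus strand, 86404219 to 86433405) stood at 99.6 and 111 CPM in Naive, at 80.6, 77.3, 72.0, 91.6 and 73.9 in Ag, and at 68.5, 69.7, 67.2, 75.3 and 68.9 in Ag+Costim. The Ag and Ag+Costim libraries overlapped, and both Naive libraries lay above all others. Its log2 difference between Ag+Costim and Ag was -0.18 ± 0.08 and did not pass (adjusted p = 0.0777, edgeR), but it was called lower with upper-quartile scaling (-0.38, adjusted p = 0.00210, edgeR), which shifted the median of all genes by -0.20. Tia1 was also called lower, by more than on counts, with a length offset (-0.38, adjusted p = 0.00448, edgeR) and on FPKM with 1 added (-0.43, adjusted p = 0.00429, limma), where the median of all genes shifted by less than 0.1. On FPKM the groups did not overlap, with 25.7 to 38.0 in Ag and 20.5 to 25.3 in Ag+Costim. Against Naive, Tia1 was lower in Ag (log2 -0.41, adjusted p = 0.00511, edgeR) and in Ag+Costim (-0.59, adjusted p = 0.000318, edgeR). Without Naive replicate 2, the difference between Ag and Naive was -0.34.

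Tial1 (chromosome 7, minus strand, 128439777 to 128461717) stood at 35.5 and 40.3 CPM in Naive, at 20.1, 14.2, 19.4, 31.1 and 15.3 in Ag, and at 39.0, 36.3, 31.5, 31.4 and 35.3 in Ag+Costim. Ag replicate 4 lay close to the lower Ag+Costim libraries, and the other Ag libraries lay well below them. On FPKM the groups overlapped, with Ag replicate 4 at 14.0 and the Ag+Costim libraries from 10.7 to 16.8. Ag was lower than Naive (log2 -0.92 ± 0.23, adjusted p = 0.00469, edgeR), a call lost with a length offset (-0.76, adjusted p = 0.0542, edgeR) and without Naive replicate 2 (-0.83, adjusted p = 0.0566, edgeR). Ag+Costim was higher than Ag by 0.80 ± 0.18 (adjusted p = 0.00214, edgeR) and differed from Naive by -0.13 (adjusted p = 0.667, edgeR), or by 0.08 with a length offset.

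Atxn2 (chromosome 5, plus strand, 121711337 to 121816493) was the member that fell with costimulation. It stood at 10.8 and 14.6 CPM in Naive, at 8.84, 11.2, 5.85, 8.78 and 8.03 in Ag, and at 4.93, 4.92, 3.30, 3.93 and 5.45 in Ag+Costim. All Ag+Costim libraries lay below all Ag libraries, and 1 Ag library overlapped Naive. Ag+Costim was 0.528-fold the Ag level (log2 -0.92 ± 0.19, adjusted p = 0.00118, edgeR) and lower than Naive by a log2 difference of -1.49 ± 0.24 (adjusted p = 0.000164, edgeR). The step from Naive to Ag was -0.57 and did not pass (adjusted p = 0.0731, edgeR), but passed without Ag replicate 2 (-0.69, adjusted p = 0.0345, edgeR). It also passed, and was larger, with a length offset (-0.87, adjusted p = 0.00538, edgeR) and on FPKM (-0.84 with 1 added and -1.09 with 0.1 added, adjusted p = 0.00119 and 0.00333, limma).

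**Figure D1:**
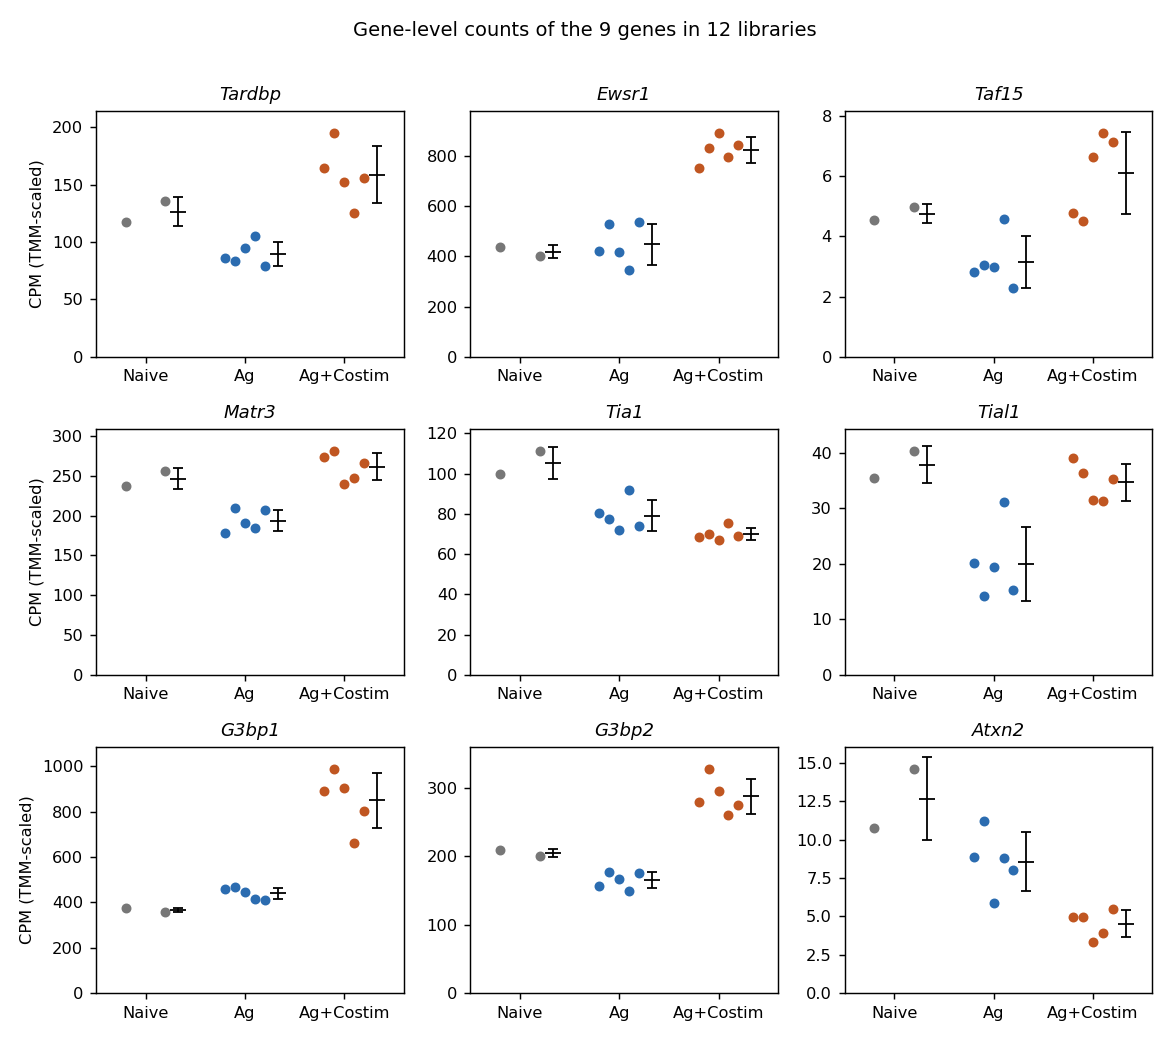
Each panel shows 1 gene, with TMM-scaled CPM on the vertical axis and the Naive (2), Ag (5) and Ag+Costim (5) libraries as points beside the group mean and SD. The Ag+Costim points of Tardbp, Ewsr1, Matr3, Tial1, G3bp1 and G3bp2 lie above all Ag points, those of Atxn2 lie below, and those of Taf15 and Tia1 overlap with Ag.

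The comparison of Ag with Naive asks what antigen and transfer without the agonist antibodies do. In it, 5 of the 9 genes were lower (Tardbp, Matr3, Tia1, Tial1 and G3bp2) and the other 4 did not pass, against 22.5% lower and 24.2% higher among all genes tested. Differences above 0 that did not pass were 0.10 for Ewsr1, which was -0.15 on FPKM, and 0.26 for G3bp1, on the log2 scale. With 2 Naive libraries this comparison rests on a thin base, since leaving either out leaves the other without a spread of its own. Without Naive replicate 2 the log2 differences were -0.39 for Tardbp, -0.29 for Matr3, -0.34 for Tia1, -0.83 for Tial1 and -0.35 for G3bp2. In Ag+Costim against Naive, 3 members were higher (Ewsr1, G3bp1 and G3bp2) and 2 were lower (Tia1 and Atxn2), against 26.9% higher and 25.4% lower among all genes. The comparisons share libraries, so their values stand side by side and are not independent. Tardbp, Matr3, Tial1 and G3bp2 each passed as lower in Ag than in Naive and as higher in Ag+Costim than in Ag. With a length offset, of these 4 genes Matr3 alone kept the call against Naive, and Tardbp, Tial1 and G3bp2 lost it (adjusted p = 0.0848, 0.0542 and 0.174, edgeR). The offset does not change the thin base of 2 Naive libraries, on which the Matr3 call rests as well.

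**Figure D2:**
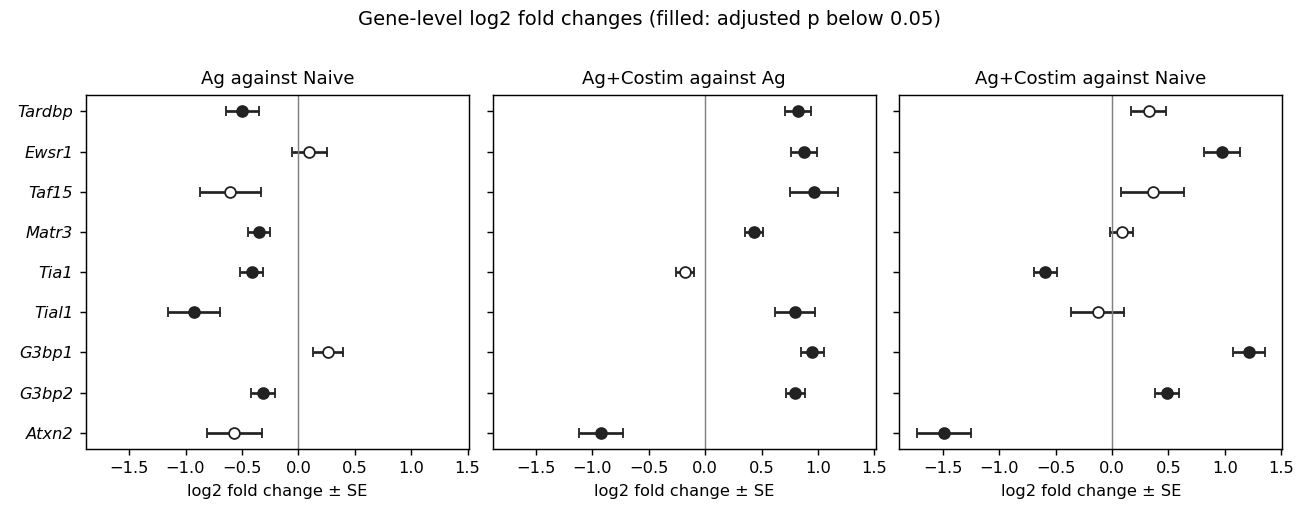
Points give each gene's log2 fold change for Ag+Costim against Ag, Ag against Naive and Ag+Costim against Naive, with bars of 1 standard error, filled where the adjusted p was below 0.05. Tardbp lies at 0.82 for Ag+Costim against Ag and at -0.50 for Ag against Naive, while Atxn2 lies below 0 in all 3 comparisons.

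Levels of different genes were compared only per length, as FPKM (fragments per kilobase of transcript, scaled to depth) summed over each gene's transcripts. Ewsr1 stood first in each group, at 199 FPKM in Naive, 182 in Ag and 317 in Ag+Costim, and its libraries overlapped with those of no other member. In Naive, G3bp2 (66.3), Matr3 (65.2), G3bp1 (62.0) and Tardbp (61.1 FPKM) followed without separation, then Tia1 (47.8), Tial1 (14.4) and, overlapping each other, Atxn2 (4.70) and Taf15 (4.41). In Ag, G3bp1 (65.5 FPKM) stood apart in second place, followed by a chain of overlapping neighbours, G3bp2 (49.7), Tardbp (42.5), Matr3 (41.6) and Tia1 (30.3). In Ag+Costim, G3bp1 (122), G3bp2 (86.8), Tardbp (67.9) and Matr3 (51.7 FPKM) formed a chain in which each overlapped with the next. Atxn2 was last there, at 1.16 FPKM, and its libraries lay below those of Taf15 (3.50). Tardbp thus lay within the middle of these genes per length in every group, well below Ewsr1.

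Ratios of related genes within a library do not depend on the library's scaling. The Tia1 to Tial1 count ratio was 2.80 and 2.76 in the Naive libraries, 4.00, 5.44, 3.72, 2.94 and 4.84 in Ag, and 1.75, 1.92, 2.13, 2.40 and 1.95 in Ag+Costim. On counts the 3 groups did not overlap: Ag lay above Naive and Ag+Costim lay below it. On FPKM, Ag replicate 4 had 38.0 for Tia1 and 14.0 for Tial1, and Naive replicate 1 had 44.5 and 15.2. That Ag ratio was the smaller, so Ag and Naive overlapped per length. The ratio fell from 4.19 ± 0.974 (SD, n = 5) in Ag to 2.03 ± 0.245 (n = 5) in Ag+Costim, a log2 difference of -1.02 ± 0.17 (SE, exact two-sided permutation test, p = 0.00794, the smallest p that 5 against 5 allows, adjusted p = 0.0238 over 3 ratios).

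The G3bp1 to G3bp2 ratio held steadier between the immunized groups. It was 1.78 and 1.79 in Naive, 2.92, 2.63, 2.69, 2.78 and 2.33 in Ag, and 3.19, 3.01, 3.05, 2.54 and 2.92 in Ag+Costim. Both immunized groups lay above Naive and overlapped each other, with a log2 difference between them of 0.14 ± 0.08 (exact two-sided permutation test, p = 0.127, adjusted p = 0.190). Without Ag+Costim replicate 4 it was 0.19 and passed (adjusted p = 0.0476, exact permutation test).

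For Ewsr1 to Taf15, the log2 ratio differed between Ag+Costim and Ag by -0.08 ± 0.30 (exact two-sided permutation test, p = 0.825), with 6.23 to 7.87 in Ag and 6.75 to 7.52 in Ag+Costim. On summed FPKM the sign turned, to 0.48. Against Naive, the permutation test of 5 against 2 cannot go below p = 0.0952, so those differences cannot pass that test and are given as values with their SE. On the log2 scale, Ag minus Naive was 0.58 ± 0.05 for G3bp1 to G3bp2, 0.56 ± 0.15 for Tia1 to Tial1 and 0.71 ± 0.30 for Ewsr1 to Taf15. Members of these pairs are alike in sequence, and how reads that fit both were assigned is not given in the sources used here.

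**Figure D3:**
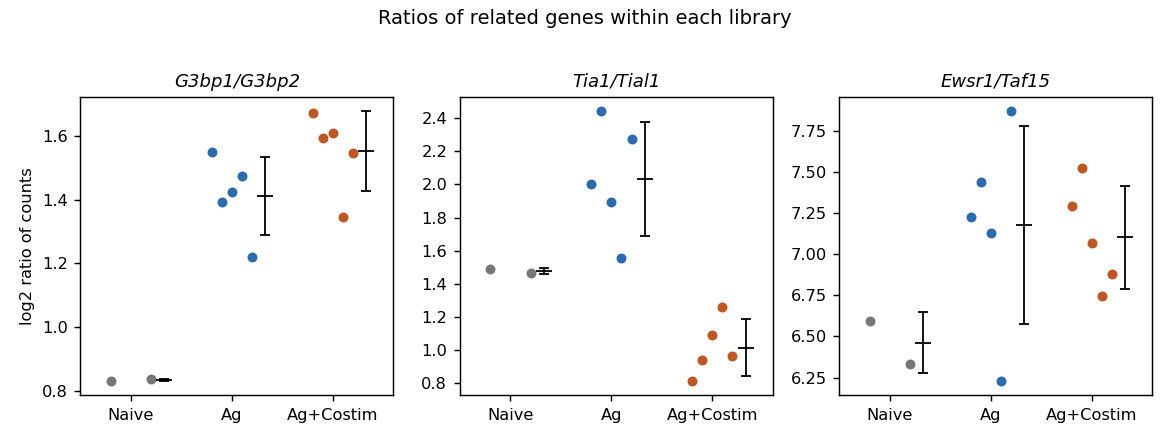
Each panel shows, for every library, the log2 ratio of the counts of a pair of related genes, with the Naive, Ag and Ag+Costim libraries as points beside the group mean and SD. The Tia1 to Tial1 ratio of the Ag+Costim libraries lies below every Ag and Naive library, while the other 2 ratios of Ag and Ag+Costim overlap.

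The deposited transcript table divides each gene's counts among annotated transcripts. It holds 140 transcripts of the 9 genes, of which 123 had counts in some library, 82 passed the filter for testing and 34 held at least 5% of their gene's counts in some group mean. Between Ag+Costim and Ag, 10 member transcripts were higher and 4 were lower (adjusted p below 0.05, edgeR), against 10.7% higher and 10.4% lower of the 50792 transcripts tested. Such values are estimates, since most single reads fit several transcripts of a gene.

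For Taf15, both transcripts that hold most of the counts passed, in opposite directions. Taf15-201, the protein-coding transcript of 16 exons, rose by a log2 difference of 2.36 ± 0.41 (SE, adjusted p = 0.00179, edgeR). Taf15-204, a processed transcript of 7 exons annotated as noncoding that reads on past the exon end printed above, fell by 1.08 on the log2 scale (adjusted p = 0.0452, edgeR). The call for Taf15-201 held under every alternative run, whereas that for Taf15-204 was lost when any library but Ag replicate 5 or Ag+Costim replicate 2 was left out, with adjusted p up to 0.0997 (edgeR). Taf15-204 took 48.6 and 39.7% of Taf15 counts in Naive, 77.3, 79.4, 73.4, 56.0 and 38.9% in Ag, and 17.3, 31.4, 9.68, 10.3 and 13.1% in Ag+Costim. All Ag libraries lay above all Ag+Costim libraries, and Ag itself spread widely, with replicates 4 and 5 in the Naive range or near it. Taf15 is a low gene, at 7.42 CPM or less in every library.

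Tia1 showed the same direction in transcripts that retain introns. Tia1-213 fell by 1.64 on the log2 scale (adjusted p = 0.000745, edgeR) and Tia1-224 by 1.18 (adjusted p = 0.00409, edgeR), while Tia1-215 rose by 1.15. The calls for Tia1-213 and Tia1-224 held under every alternative run, and that for Tia1-215 was lost when any library but Ag replicate 2 was left out (adjusted p 0.0539 to 0.0752, edgeR). Tia1-213 took 14.8 and 16.1% of Tia1 counts in Naive, 16.8, 14.3, 11.6, 19.2 and 11.8% in Ag, and 4.95, 5.37, 4.98, 6.49 and 3.88% in Ag+Costim. The Ag+Costim shares lay below all others. Transcripts of Tia1 annotated with a retained intron took together 51.3 ± 5.10% of its counts in Naive, 43.3 ± 6.09% in Ag and 24.3 ± 2.33% in Ag+Costim, with Ag libraries from 36.3 to 52.9% and Ag+Costim libraries from 22.2 to 27.8%.

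The share of counts that protein-coding transcripts hold was then listed for all members, as a description chosen after the transcript values were seen and without a test. For Tia1 it was 47.7 and 34.9% in Naive, 49.7, 40.1, 57.8, 45.2 and 34.0% in Ag, and 67.2, 61.7, 73.9, 63.9 and 66.3% in Ag+Costim. Taf15 went from 33.0 ± 17.6% in Ag (SD, n = 5) to 80.6 ± 9.46% in Ag+Costim, with 48.1% in Naive. For Tial1 the shares were 77.2 and 68.2% in Naive, 67.3, 0.0, 67.3, 72.6 and 58.7% in Ag, and 87.9, 82.8, 91.5, 74.6 and 79.7% in Ag+Costim. Ag replicate 2 stands apart: 76.5% of its Tial1 counts were given to the retained-intron transcript Tial1-208 and 0 to coding ones.

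In 5 of the 9 genes (Ewsr1, Taf15, Tia1, Tial1 and G3bp2) every Ag+Costim library held a larger coding share than every Ag library, in 0 it was smaller, and in 4 the groups overlapped. The background was 8477 tested genes that have both protein-coding and other annotated transcripts and at least 10 counts in every library. Among them, 11.7% lay wholly above and 1.86% wholly below, and the median gene gained 0.312 percentage points. For Ewsr1 and G3bp2 the gap was small, from 98.2 to 98.5% against 98.7 to 99.1% and from 97.3 to 99.3% against 99.5 to 99.8%. The coding share of Tardbp was 76.0 ± 15.5% in Ag and 80.5 ± 9.67% in Ag+Costim, overlapping.

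**Figure D4:**
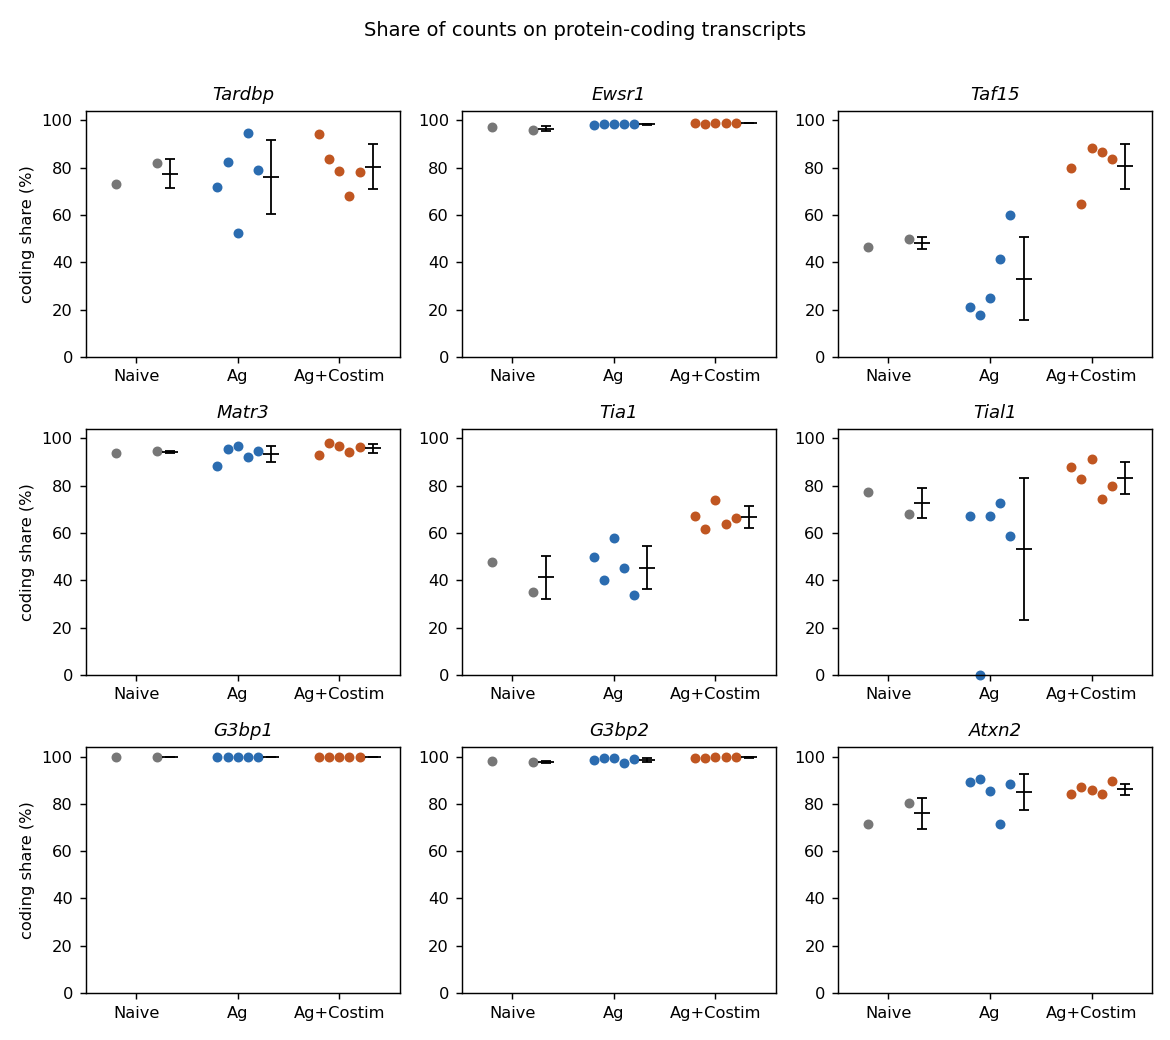
For each gene, points give the percentage of its counts in every library that the transcript table assigns to protein-coding transcripts, by group, beside the group mean and SD. Taf15, Tia1 and Tial1 rise from means of 33.0, 45.3 and 53.2% in Ag to 80.6, 66.6 and 83.3% in Ag+Costim, while G3bp1 stays above 99% throughout.

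For Tardbp, the full-length Tardbp-202 and the shorter Tardbp-204 rose alike. Tardbp-202 keeps the last exon whole and has 1242 coding bases, and Tardbp-204 splices part of that exon out and has 885. Their log2 differences between Ag+Costim and Ag were both 1.03, with adjusted p of 0.0229 and 0.0339 (edgeR). The call for Tardbp-202 was lost without Ag replicate 5 or Ag+Costim replicate 1 or 5 (adjusted p 0.0513 to 0.0533, edgeR). That for Tardbp-204 was lost without Ag replicate 1, 2, 3 or 5 or Ag+Costim replicate 1, 2 or 3 (adjusted p 0.0582 to 0.0813, edgeR). As shares of Tardbp counts, Tardbp-202 averaged 24.9% in Naive, 22.8% in Ag and 25.0% in Ag+Costim, and Tardbp-204 averaged 34.5, 41.7 and 45.1%.

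Whether a transcript's share within its gene changed was tested over 41844 transcripts. By diffSpliceDGE (edgeR), 1 member transcript passed between Ag+Costim and Ag, against 2.57% of all. It was Matr3-207, which held 27.4% of Matr3 counts in Naive replicate 1, 11.5% in Ag+Costim replicate 5 and 0 in every other library, so the call rests on single libraries. This test recovered few of the changes placed in simulated data, so a second one, on the log-odds of a transcript within its gene with limma, was added after the data were seen. It called 7 member transcripts, against 7.20% of all: Taf15-201 higher, and Taf15-204, Tia1-213, Tia1-224, Ewsr1-209, G3bp2-208 and Matr3-216 lower in Ag+Costim. The change for Taf15-201 was 3.49 on the log2 odds scale (adjusted p = 0.00563, limma) and for Tia1-213 it was -1.66 (adjusted p = 0.00436, limma). In Ag against Naive, diffSpliceDGE again called Matr3-207 alone, against 1.66% of all, and the log-odds test called Ewsr1-210 and Tia1-215, both lower in Ag, against 4.25%.

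Splicing was also deposited as Psi, the fraction of transcripts that include a node, an exon piece between splice or end sites. For a node that marks a transcript start or end, Psi is read here as the fraction that start or end there. The values come with 1 Psi per group and the probability that Whippet gave for a difference. There is 1 Psi for all 5 libraries of a group, so the spread between libraries is unknown here. Of 170 member nodes, 5 passed the study's thresholds (a probability over 0.9 with a change in Psi of over 0.05), against 1.96% of 115403 nodes. They lie in 2 genes, 3 of the 15 nodes of Tardbp and 2 of the 27 nodes of Ewsr1, and 0 of the nodes of the other 7 members passed.

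In Tardbp the passing nodes lie in the last exon, which transcripts can keep whole or cut by splicing. A retained-intron node of 941 bases went from a Psi of 0.422 in Ag to 0.601 in Ag+Costim (probability 0.952), so that it was included more in Ag+Costim by 0.179. The coding sequence of Tardbp-202 ends inside this node, while that of Tardbp-204 ends beyond it.

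Farther along the Tardbp end, nodes that mark alternative transcript ends had smaller or less certain differences. A 103-base node (148617451 to 148617553) passed, with a Psi of 0.0139 in Ag and 0.0829 in Ag+Costim (probability 0.912). The node most used, of 725 bases, had 0.824 and 0.712 (probability 0.707), and the most distal one, of 4344 bases, had 0.0354 and 0.0103 (probability 0.988, a difference under 0.05). The count share of Tardbp-202, which keeps the retained-intron node, averaged 22.8% in Ag and 25.0% in Ag+Costim, a smaller step than that in the Psi of the node. Tardbp-202 also runs through the most distal end node, whose Psi was far below that share and went down. These measures come from different programs, and other Tardbp transcripts reach into the same end.

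In Ewsr1 the passing nodes are the last pieces of the transcript. A 199-base end node (5069698 to 5069896) went from a Psi of 0.228 to 0.0611 (probability 0.968), and the 9-base node that follows it (5069689 to 5069697) from 0.292 to 0.482 (probability 0.988). Of these 2, the farther end, by 9 bases, had the higher Psi in Ag+Costim. The end node before them, of 207 bases, did not pass, at 0.481 and 0.458 (probability 0.721). Ewsr1-205, the transcript that ends there, took a mean of 0.00391% of Ewsr1 counts in Ag and in Ag+Costim, far from that Psi. In the transcript table, Ewsr1-203, which ends at the farther site, took 45.7 to 98.1% of Ewsr1 counts in the Ag libraries and 79.0 to 91.4% in the Ag+Costim libraries, and Ewsr1-202, which ends at the nearer one, took 0 to 51.0% and 6.38 to 19.8%. The Ag values enclosed all Ag+Costim values, and no change in share was called for either transcript by log-odds (adjusted p = 0.948 and 0.768, limma) or by diffSpliceDGE (adjusted p = 1.0 and 0.644, edgeR).

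The printed pieces of Tia1 and Tial1 did not pass. The Tia1 cassette exon had a Psi of 0.733 in Ag and 0.679 in Ag+Costim (probability 0.683). The Tial1 extension had 0.358 and 0.180 (probability 0.781), a difference as large as that in Tardbp but less certain. G3bp1 had 0 passing nodes of 10 and is spliced almost wholly to 1 transcript, G3bp1-201, which held 99.8% of its counts in Ag and 99.9% in Ag+Costim.

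**Figure D5:**
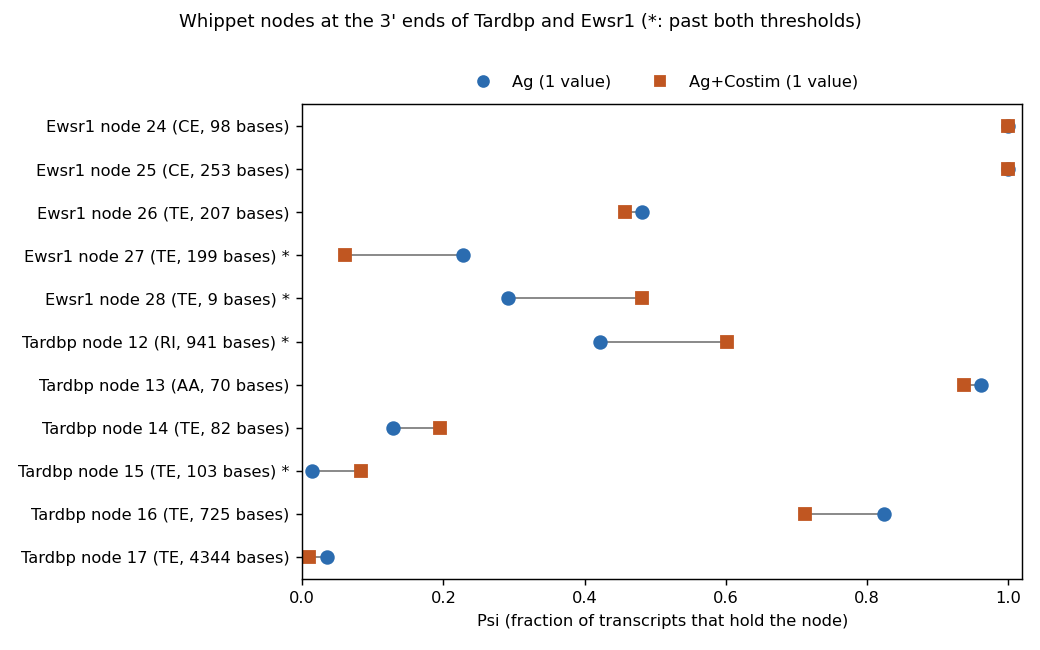
The horizontal axis gives the deposited Psi of 3′ end nodes of Tardbp and Ewsr1, with a circle for Ag, a square for Ag+Costim and a star at the label of a node that passed, 1 value per group with no replicate error. The Tardbp retained-intron node goes from 0.422 to 0.601, and the last Ewsr1 end node goes from 0.292 to 0.482.

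Partners of these proteins were counted from fixed lists, as a description beside the 9 genes. Of 24 further stress granule proteins, 19 rose and 1, Ybx3, fell with costimulation over Ag, with a median log2 difference of 0.83 where all genes had -0.05, and where 26.6% of all genes were higher and 26.5% lower. The largest changes were in Larp4 (2.02), Usp10 (1.78), Ybx1 (1.68) and Nufip2 (1.67). Usp10 and Caprin1 (1.41) bind the G3BP proteins directly, and Atxn2l, the relative of Atxn2, was higher by 1.25 where Atxn2 fell. Against Naive, 13 of the 24 were lower and 3 higher in Ag (median -0.60), beside 22.5% lower and 24.2% higher of all genes. In Ag+Costim against Naive, 13 were higher and 3 lower (median 0.37), beside 26.9% higher and 25.4% lower of all genes.

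In the integrated stress response, the pathway that stalls initiation through phosphorylation of eIF2 and so leads to granules, costimulation came with higher levels of 12 of 16 genes and lower levels of 3 (median 0.52), beside the same 26.6% higher and 26.5% lower of all genes. The kinases Eif2ak4 (1.37), Eif2ak3 (1.32) and Eif2ak2 (1.24) and the eIF2 subunit Eif2s3x (1.25) were higher. Lower were Ddit3, which encodes the stress-induced factor CHOP (-2.11), Ppp1r15a, which encodes the inducible eIF2 phosphatase subunit GADD34 (-1.06), and Eif2b2 (-0.41). Atf4, the central transcription factor of the response, differed by -0.07 (adjusted p = 0.503, edgeR).

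Of 11 nuclear partners, paraspeckle proteins and members of the hnRNP family, 7 were higher in Ag+Costim than in Ag and the other 4 were not called (median 1.01, with 26.6% of all genes higher), led by Rbm14 (1.79), Pspc1 (1.37), Hnrnpab (1.09) and Hnrnpa1 (1.07). Of 9 genes for nuclear import receptors and their partners, 9 were higher (median 1.70, beside the same 26.6%), led by Cse1l (2.08), Tnpo2 (1.89), Kpna4 (1.80) and Tnpo1 (1.77). The importins alpha and beta carry TDP-43 into the nucleus, and Tnpo1 and Tnpo2 encode transportins, which carry FET proteins. In Ag against Naive, 7 of these 9 import genes were lower and 1, Kpna2, was higher (2.39), beside 22.5% lower and 24.2% higher of all genes. In the same comparison 5 of the 11 nuclear partners were higher and the other 6 were not called.

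Over the 12 libraries, the genes whose log2 CPM followed Tardbp most closely among 9253 genes of sufficient level were Cdan1 (Pearson r = 0.983), Fam98a (0.981), Khsrp (0.977), Slc38a1 (0.975) and Epop (0.974). Among members, G3bp2 (0.889), Matr3 (0.867) and Tial1 (0.860) came closest, followed by G3bp1 (0.762) and Ewsr1 (0.663), and Tia1 had -0.217. These r values describe libraries that share 3 groups, so they mostly follow the group means and carry no p.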

How the data were processed

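RNA was measured by sequencing of 12 libraries (SMART-Seq v4 with Nextera XT, single reads; strand not stated). Per the submitters' processing notes, reads were aligned with HISAT2 2.1.0 to mm10 and quantified with StringTie 2.1.0, with SAMtools 1.9, R 4.0.5 and DESeq2 1.30.1 also named. The deposited gene and transcript counts are those that the authors derived from StringTie coverage. FPKM per transcript were deposited by the authors and summed per gene here. The deposited Whippet table gives Psi as a fraction and a probability score for Ag+Costim against Ag, 1 value per group. How Whippet combined libraries is not given in the sources used here, and the values and sequence of some short Tardbp nodes are not reported here.

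Entries without an annotated gene (26345 of 81881, 0.0508 to 0.121% of counts) were left out. Genes passing edgeR's filter (18817) were scaled by TMM and tested in a quasi-likelihood fit over the 3 groups (edgeR 4.0.16, R 4.3.3, Benjamini-Hochberg), as were 50792 transcripts. Share within a gene was tested with diffSpliceDGE and, added after the data were seen, limma 3.58.1 on log2 odds with 0.5 added. Ratios were tested by exact permutation (SciPy 1.17.1). Alternatives included DESeq2 1.42.0, other scalings, FPKM with 1 or 0.1 added (limma), other filters, a replicate block and leaving out each library. In simulated data for Ag+Costim against Ag, the gene test recovered 70.0% of 200 changes of log2 1 among 18023 genes with 5 false calls. At that size diffSpliceDGE and the log-odds test each recovered 0 of 200 transcripts, with 235 and 0 false calls over 38952. At log2 3, diffSpliceDGE recovered 16.0% of 200 with 239 false calls over 38950 transcripts, and the log-odds test 45.0% with 6.

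The members, lists and tests were chosen with earlier results of these data known. By rule, the text names transcripts with at least 5% of their gene's counts in a group mean, passing Psi nodes (but for what is not reported here), the 4 largest called changes per list and 5 genes correlated with Tardbp. Tia1-215, Ewsr1-209, Ewsr1-210, G3bp2-208, Matr3-216, Ybx3, Caprin1, Atxn2l, Eif2ak2, Ppp1r15a, Eif2b2 and Atf4 were named after their values were seen.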

Additional observations from a re-analysis of the deposited data

Results flagged for a closer look

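In 42 sets of 5 libraries (Ag or Ag+Costim, for CPM and coding share of the 9 genes and the 3 ratios), 2 held a library far from the rest by Dixon's rule, which chance alone would give in about 1 of 20. The coding share of Tial1 was 0.0% in Ag replicate 2, against 58.7 to 72.6% in the other Ag libraries, a gap of 0.810 of the range. The coding share of Atxn2 was 71.6% in Ag replicate 4, the library with the fewest counts, against 85.3 to 90.6% in the other Ag libraries (0.718 of the range). Without replicates in the Psi table, its values could not be screened in this way.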

How the results depend on the processing

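Between Ag+Costim and Ag, 8 members passed under each alternative fit that left out a library, and the counts for the 4 lists stayed within 1.5 times. Tia1 passed as lower and Taf15 did not pass where length entered (Tia1 -0.43 on FPKM with 1 added and -0.38 with the length offset). In Ag against Naive, 5 members became 3 with a length offset (Matr3 and Tia1 kept, Tardbp, Tial1 and G3bp2 lost, Atxn2 gained), and DESeq2 gave 5. As Ag or Ag+Costim libraries were left out the range reached 6, while leaving out a Naive library leaves no spread in that group. In Ag+Costim against Naive the range was 5 to 6. Signs turned for values that had not passed: Ewsr1 in Ag against Naive was -0.15 on FPKM with either 1 or 0.1 added. In Ag+Costim against Naive, Matr3 was -0.067 with upper-quartile scaling, -0.10 with the length offset and -0.33 on FPKM with either pseudocount, Tial1 was 0.081 with the offset, and Taf15 was -0.080 with the offset and -0.27 and -0.34 on FPKM with 1 and 0.1 added. The cause was not tested. Upper-quartile scaling shifted the median of all genes by -0.20 in Ag+Costim against Ag and -0.15 against Naive. Member transcripts called (14) ranged from 8 to 13, and fell to 9 without Ag replicate 1 or 5 and 8 without Ag+Costim replicate 1. Changed usage (1 by diffSpliceDGE) became 2 without the filter on low counts and 0 to 3 as libraries were left out, with 7 by log-odds; in Ag against Naive it was 0 to 1, and 2 by log-odds. Losses of Matr3-207 came without Ag+Costim replicate 5 or Naive replicate 1. For the ratios, leaving out a library gave log2 differences of 0.093 to 0.19 for G3bp1 to G3bp2, -1.14 to -0.92 for Tia1 to Tial1 and -0.31 to 0.10 for Ewsr1 to Taf15, whose sign also turned without Ag+Costim replicate 4 (0.01), and on FPKM (0.48). Passing Psi nodes fell from 5 to 3 at a probability above 0.95, 4 at a difference above 0.1, and 2 without start and end nodes.

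Equal replicate numbers did not mark pairs: deviations from group means of Ag and Ag+Costim libraries of 1 number correlated at 0.297, 0.148, 0.105, -0.0447 and -0.0168. With a replicate block, 8 members passed in Ag+Costim against Ag, 5 in Ag against Naive (G3bp1 higher, Taf15 among the 4 lower, and Tardbp and G3bp2 not called) and 5 in Ag+Costim against Naive. Member transcripts called were then 9, those with changed usage 0 and 1, and the Tia1 to Tial1 difference of -1.02 had an adjusted p of 0.188, where 5 pairs allow no p below 0.0625 in the exact sign-flip permutation.

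Depth limits Taf15 and Atxn2, the lowest members, and counts set by StringTie among transcripts carry an assignment error that is not given.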
